A study of Mus musculus with 37 samples.

Results

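Cultured bone marrow (BM) from young mice whose osteoblast lineage lacked *Trp53* was compared with BM from control mice. The comparison used 6 of the 37 libraries of the series: 3 of single-knockout young BM (SKO yBM) and 3 of control BM, all from the second of 2 library sets (set 2, 21 libraries). SKO yBM came from mice without tumors in which Osx1-Cre, active in mesenchymal progenitors committed to bone, deleted *Trp53* and switched on a tdTomato reporter. Control BM came from mice labelled Control-WT, whose Cre status for these libraries is not given in the sources used here. The labels give no age for either group. Both were flushed from the long bones, grown on plastic and read by poly-A RNA sequencing, and by the methods cultures of tdTomato mice were passaged until labelled cells predominated. Nothing says that the 3 libraries of a group came from separate mice, so the p-values below rest on the spread between libraries, which may be technical.

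Marrow cultures begin as a mixture. Stromal cells and osteoblast precursors attach and divide, while macrophages and other leukocytes attach beside them and are lost at different rates with passage. A gene can therefore differ between 2 cultures because its level per cell changed or because the cells that express it are fewer, and in bulk RNA the first cannot be told apart from the second. To hold the loss of leukocyte genes apart from changes of stromal genes, each gene was classed by how its level followed leukocyte markers in the 16 libraries of the first set (set 1), which are not in the comparison. Levels are in TPM, a measure corrected for transcript length that sums to the same total in every library. The leukocyte score of a library was the mean log2(TPM + 1) of 82 pan-leukocyte and macrophage genes. A gene was called leukocyte-linked where its Pearson correlation with the score over set 1 was at least 0.7. By this rule 760 of the 14458 tested genes were leukocyte-linked and 13698 were other genes. Of the 16 libraries, 2 had a score under 1, both from DKO tumor (DKO: *Trp53* and *Wwox* deleted), so the link also sets those 2 apart from the rest. The 16 hold both DKO and control libraries, so the link can follow genotype as well.

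*Trp53*, the deleted gene, was at 35.9, 65.9 and 74.9 TPM in control BM and 3.77, 2.91 and 3.43 TPM in SKO yBM (log2 fold change -3.71 ± 0.49 SE, adjusted p = 2.4e-05). The groups did not overlap. *Trp53* was itself leukocyte-linked in set 1 (r = 0.72). That set holds 4 control libraries, and in its other libraries, all DKO, *Trp53* is deleted. Controls 3 and 4 had the highest scores of set 1 (6.21 and 6.27), while controls 1 and 2 had 4.52 and 4.29. For this gene r therefore mixes genotype with leukocyte content. *Wwox*, which is intact in SKO, was at 4.05, 2.97 and 3.74 TPM in control BM and 7.42, 3.12 and 7.87 TPM in SKO yBM, and it did not pass the test (log2 fold change 0.57 ± 0.66 SE, adjusted p = 0.59). All 3 control libraries held transcripts of the Y chromosome gene *Ddx3y* (20.7, 36.3 and 32.6 TPM), which was listed at 0 in all 3 SKO yBM libraries. *Xist*, expressed from the inactive X chromosome, showed the reverse, at 22.5, 39.8 and 28.5 TPM in SKO yBM and under 0.02 TPM in each control. Sex and genotype therefore cannot be told apart in this comparison.

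Leukocyte markers differed between the groups in every library. The leukocyte score was 6.63, 6.58 and 6.78 in control BM and 0.47, 0.44 and 0.42 in SKO yBM. The 82 marker genes took 3.04 to 3.68% of all TPM in control BM and 0.0103 to 0.0135% in SKO yBM. Control library 1 stood apart from its group, with 32.5% of its TPM from mitochondrial genes against 13.6% and 9.07% in the other controls and 14.5 to 17.7% in SKO yBM, and without it the median log2 fold change of all tested genes moved from 0.24 to 0.068 and that of the genes outside the leukocyte-linked class, defined above, from 0.29 to 0.12. DKO yBM of set 2 had scores of 0.45 to 0.49, so the SKO yBM libraries, although labelled bone marrow, stood close to it and far from the controls. DKO yBM of set 1 scored 2.83 to 6.14, which overlapped control BM of set 1 at 4.29 to 6.27. In set 2 all knockout libraries, tumors included, scored at most 0.68, except 2 from marrow of tumor-bearing mice (BMT). These were SKO BMT library 2 (3.57) and DKO BMT library 2 (3.07). A low score was therefore not shared by all young knockout marrow.

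**Figure D1:**
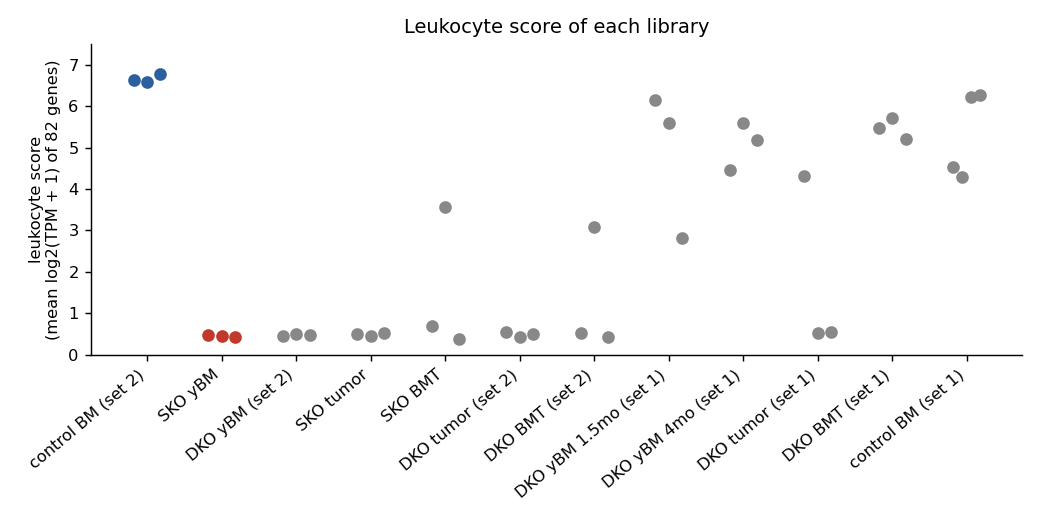
Leukocyte score (mean log2(TPM + 1) of 82 genes, vertical axis) of every library, by group, with control BM of set 2 in blue, SKO yBM in red and the other libraries in grey. The 3 control libraries lie between 6.58 and 6.78 and the 3 SKO yBM libraries between 0.42 and 0.47.

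Across all tested genes, 1958 (13.5%) were called at an adjusted p under 0.05 by limma on log2(TPM + 1), 835 of them higher (5.78%) and 1123 lower (7.77%) in SKO yBM. Of the 760 leukocyte-linked genes, 576 (75.8%) were called lower and 0 were called higher by limma (0 at an unadjusted p under 0.05 as well), and 750 lay below 0. Among the 13698 other genes, 835 (6.1%) were called higher and 547 (3.99%) lower. The median log2 fold change was -2.57 for leukocyte-linked genes and 0.29 for other genes, against 0.24 for all tested genes. TPM is a share of each library, so a value depends on what else the library holds. With leukocyte-linked and mitochondrial genes removed and the remainder rescaled to 1000000 TPM, the other genes split into 439 higher (3.21%) and 711 lower (5.2%), and with median-ratio scaling into 887 higher and 1106 lower. With both scalings 405 of the 835 rises and 536 of the 547 falls were called in the same direction, and none of the 835 or 547 changed sign. Without control library 1, 212 genes were higher and 1049 lower, and without SKO yBM library 3, 196 were higher and 829 lower.

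**Figure D2:**
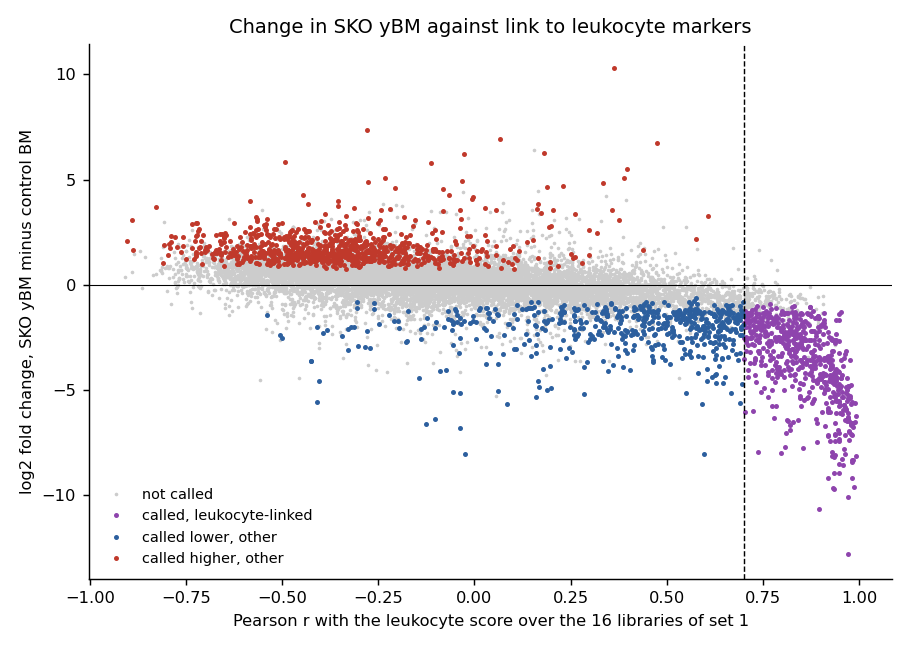
Log2 fold change of SKO yBM against control BM (vertical axis) for each tested gene, by its correlation with the leukocyte score over the 16 libraries of set 1 (horizontal axis, dashed line at 0.7). Called genes past the line (576, purple) all lie below 0, while the 835 rises (red) lie to its left.

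Genes of every leukocyte were the first group to fall. All 31 pan-leukocyte genes were tested and all 31 were called lower, with a median log2 fold change of -5.81 against 0.24 for all tested genes. *Ptprc*, which encodes CD45, the surface phosphatase of nearly all blood leukocytes, was at 41.8, 35.4 and 46.7 TPM in control BM and 0, 0.112 and 0.0092 TPM in SKO yBM (log2 fold change -5.34 ± 0.53 SE, adjusted p = 7.6e-07). *Spi1*, which encodes the myeloid transcription factor PU.1, went from 319, 264 and 268 TPM to 0.116, 0.0237 and 0 TPM (log2 fold change -8.08 ± 0.95 SE, adjusted p = 5.3e-06). *Itgb2*, the beta chain of the leukocyte integrins, went from 282, 243 and 266 TPM to 0.346, 0.108 and 0.157 TPM (log2 fold change -7.78 ± 0.89 SE, adjusted p = 3.8e-06). In 27 of the 31 genes all 3 SKO yBM libraries were below 1 TPM, and such genes can pass the filter through the controls alone. *Arhgdib*, a regulator of small GTPases, was an exception and remained at 55.7, 29.1 and 30 TPM, against 823, 457 and 448 TPM in control BM.

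Macrophage genes gave the largest falls. Of 51 genes, 49 passed the filter on low values and all 49 were called lower, with a median of -6.68. In 43 of the 49 all 3 SKO yBM libraries were below 1 TPM. Such genes can pass the filter through the controls alone, so the count of falls was partly set by it. *Lyz2*, which encodes the lysozyme of myeloid cells, was the most abundant of them, at 17778, 14993 and 18933 TPM in control BM and 2.02, 1.74 and 0.631 TPM in SKO yBM (log2 fold change -12.81 ± 2.20 SE, adjusted p = 0.00045). *Csf1r*, the receptor for the macrophage growth factor CSF1, was at 544, 582 and 599 TPM and 0.845, 0.472 and 0.284 TPM (log2 fold change -8.57 ± 0.93 SE, adjusted p = 2.1e-06). *Adgre1*, which encodes the F4/80 antigen, was at 218, 293 and 483 TPM and 0, 0.0181 and 0 TPM (log2 fold change -8.29 ± 1.01 SE, adjusted p = 8.3e-06). The complement subunit genes *C1qa*, *C1qb* and *C1qc* were between 401 and 889 TPM in the controls and did not exceed 0.09 TPM in SKO yBM. *Tyrobp*, a signalling adaptor of myeloid receptors, was at 588, 1222 and 1792 TPM in control BM and listed at 0 in all 3 SKO yBM libraries, as was the lectin gene *Clec4d*. *Apoe*, which encodes a lipid carrier that macrophages and other cells make, went from 4841, 2912 and 1539 TPM to 0.839, 0.811 and 0.625 TPM (log2 fold change -10.63 ± 1.62 SE, adjusted p = 0.00012). *Laptm5*, *Ctss*, *Wfdc17* and *Cd68* completed the 12 largest leukocyte-linked falls, each with every control library above 400 TPM and every SKO yBM library below 1 TPM.

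The lists of other blood cells did not move as 1 group. Of 9 class II antigen presentation genes, 6 were tested and 5 were called lower, including *Cd74*, the invariant chain, at 15.3, 33.1 and 76.9 TPM against 2.01, 0.597 and 0.502 TPM (log2 fold change -4.18 ± 0.77 SE, adjusted p = 0.00096). None of the 6 reached r = 0.7, so they count among the other genes. *H2-Eb1* and *H2-DMa* missed the threshold when any of 5 of the 6 libraries was left out (highest adjusted p = 0.18 and 0.16). Of 6 tested neutrophil genes, 3 fell: *Csf3r*, *S100a8* and *Mmp8*, at 1.08 to 10.04 TPM in control BM, while the other 3 lay above 0 without being called. Of 18 lymphocyte genes, 16 were too low to test, and *Ighm*, the immunoglobulin mu heavy chain, went from 7.09, 4.09 and 3.29 TPM to 0.0309, 0 and 0 TPM. Among 9 osteoclast genes tested, *Tnfrsf11a*, which encodes the receptor RANK, went from 13.6, 13.6 and 16.8 TPM to 0.0806, 0.209 and 0.356 TPM (log2 fold change -3.69 ± 0.31 SE, adjusted p = 8.9e-08), and *Atp6v0d2* was also called lower. The other 7 were not called, and the 9 summed to 174 to 198 TPM in control BM and still to 85.7 to 123 TPM in SKO yBM. The platelet chemokine gene *Ppbp* was the called member among 3 tested erythroid and megakaryocyte genes, and neither of 2 tested mast cell genes was called (0 at an unadjusted p under 0.05). Those 2 summed to 136 TPM in SKO yBM library 1, against 10.6 and 11 TPM in the other SKO yBM libraries and 7.94 to 17.2 TPM in control BM.

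The promoters of the lost genes were searched for the box that PU.1 binds. The box GAGGAAG, searched on both strands in the 300 bases from 250 before to 50 after each RefSeq start (GRCm38.p6), was in the promoters of 31% of the leukocyte-linked genes that fell (436 of 576 had a promoter in the table), 20.6% of the other genes that fell, 12.8% of those that rose, 16% of the 10327 tested genes with a promoter and 15.4% of all 27025 symbols. It was in 38.9% of 36 macrophage promoters and 36.4% of 22 pan-leukocyte promoters. The AP-1 site TGANTCA was in 10.6% of the leukocyte-linked falls, 5.31% of the rises, 6.31% of tested genes and 8.97% of all symbols, and the CArG box in 1.38%, 1.49%, 1.57% and 1.81%. A match describes the letters and was not tested as a binding site. The 4 stretches below, each upstream of the start and written on the gene's strand, are examples from the pan-leukocyte genes that fell. Capitals mark the box or its reverse complement.
Laptm5 (chr4:130913216-130913315, plus strand, GRCm38.p6): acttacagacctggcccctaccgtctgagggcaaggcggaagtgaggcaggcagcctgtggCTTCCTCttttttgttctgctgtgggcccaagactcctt
Vav1 (chr17:57279000-57279099, plus strand, GRCm38.p6): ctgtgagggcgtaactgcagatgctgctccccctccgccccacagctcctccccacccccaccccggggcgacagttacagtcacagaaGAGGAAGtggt
Inpp5d (chr1:87620212-87620311, plus strand, GRCm38.p6): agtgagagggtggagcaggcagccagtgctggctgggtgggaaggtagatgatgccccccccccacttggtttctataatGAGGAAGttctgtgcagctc
Cd37 (chr7:45238840-45238939, minus strand, GRCm38.p6): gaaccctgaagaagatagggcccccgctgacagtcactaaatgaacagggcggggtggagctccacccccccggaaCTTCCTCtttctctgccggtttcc
In these 4 promoters the box ended between 4 and 32 bases before the annotated start. In *C1qc* and *Clec4d*, macrophage genes that also fell, it ended 187 and 234 bases before the start. The examples therefore do not describe where the box lies in general. *Laptm5* is a lysosomal protein gene of blood cells, *Vav1* and *Inpp5d* encode signalling proteins of blood cells and *Cd37* encodes a leukocyte tetraspanin. All 4 were called lower, the last 3 with log2 fold changes of -5.36, -6.09 and -5.31.

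The 547 falls among other genes still held leukocyte genes. In 224 of them r was 0.5 to 0.7, and in 323 it was below 0.5. *Cx3cr1*, the fractalkine receptor of macrophages (r = 0.67), went from 42, 34 and 30.1 TPM to 0, 0.0146 and 0.0127 TPM (log2 fold change -5.16 ± 0.21 SE, adjusted p = 1.4e-11). *Fcrls*, a scavenger receptor gene of macrophages and microglia (r = 0.60), was at 293, 249.5 and 237 TPM in control BM and listed at 0 in SKO yBM. *Nxpe5* (r = 0.69) went from 58.2, 34.7 and 54.8 TPM to 0.0117, 0.0239 and 0 TPM. A fixed correlation therefore did not remove all leukocyte genes from the other class. Of the linked falls, 309 of 576 also had r of at least 0.7 in the 15 set 2 libraries outside the comparison.

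Among the 12 largest other falls, the link to leukocyte markers was weak for *Serpina3n*. The others named here are given only as lying under r = 0.7, and loss of leukocytes was not tested for them. *Serpina3n*, a secreted serine protease inhibitor (r = 0.08), was at 32.5, 40.7 and 90.4 TPM in control BM and 0.0214, 0 and 0 TPM in SKO yBM (log2 fold change -5.64 ± 0.83 SE, adjusted p = 7.5e-05). *Ass1*, argininosuccinate synthase of the urea cycle, went from 134, 183 and 145 TPM to 6.17, 1.22 and 3.68 TPM (log2 fold change -5.19 ± 1.01 SE, adjusted p = 0.0016). *Cox6b2*, a testis-type subunit of cytochrome c oxidase, went from 12.9, 84.5 and 81.1 TPM to 0.349, 0.57 and 0.469 TPM (log2 fold change -4.98 ± 0.65 SE, adjusted p = 2.1e-05). *Rpl3-ps1* and *Eno1b* also ranked among the 12 largest, but their sequences lie close to those of *Rpl3* and *Eno1*, between which reads can be divided, so both are uncertain.

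The number of stromal genes called outside the leukocyte-linked class depended on the libraries in the fit. Across 13 lists of mesenchymal, niche, osteoblast, matrix, contractile, adipocyte, chondrocyte, growth factor and Hox genes, 303 tested genes were not leukocyte-linked, and 10 of them were called higher and 11 lower, against 6.1% and 3.99% of all other genes. A fit of the 2 compared groups alone called 58 higher (19.1%) and 31 lower (10.2%), against 13% and 7.4% of all other genes in that fit, so their standing against the other genes turned over. In it the osteoblast list had 12 higher and 1 lower, the matrix glycoprotein and proteoglycan list 12 higher and 6 lower, and the Hox list 10 higher and 0 lower. Quantile normalization called 25 higher and 21 lower, against 12.3% and 6.75% of all other genes. The median log2 fold change of the 303 genes was 0.49, against 0.29 for all other genes. With median-ratio scaling it was 0.24, against 0.0066 for all tested genes. After rescaling it was 0.30, against 0.094 for all genes in that fit. Without control library 1 it was 0.20, against 0.12 for all other genes. Leaving out SKO yBM library 3 left 3 higher and 3 lower, and leaving out control library 1 left 4 and 8. A further 9 tested members were leukocyte-linked, and 6 of those fell: *Bst1*, *Fam20c*, *Cd36*, *Tgfb1*, *Pdgfb* and *Igf1*.

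**Figure D3:**
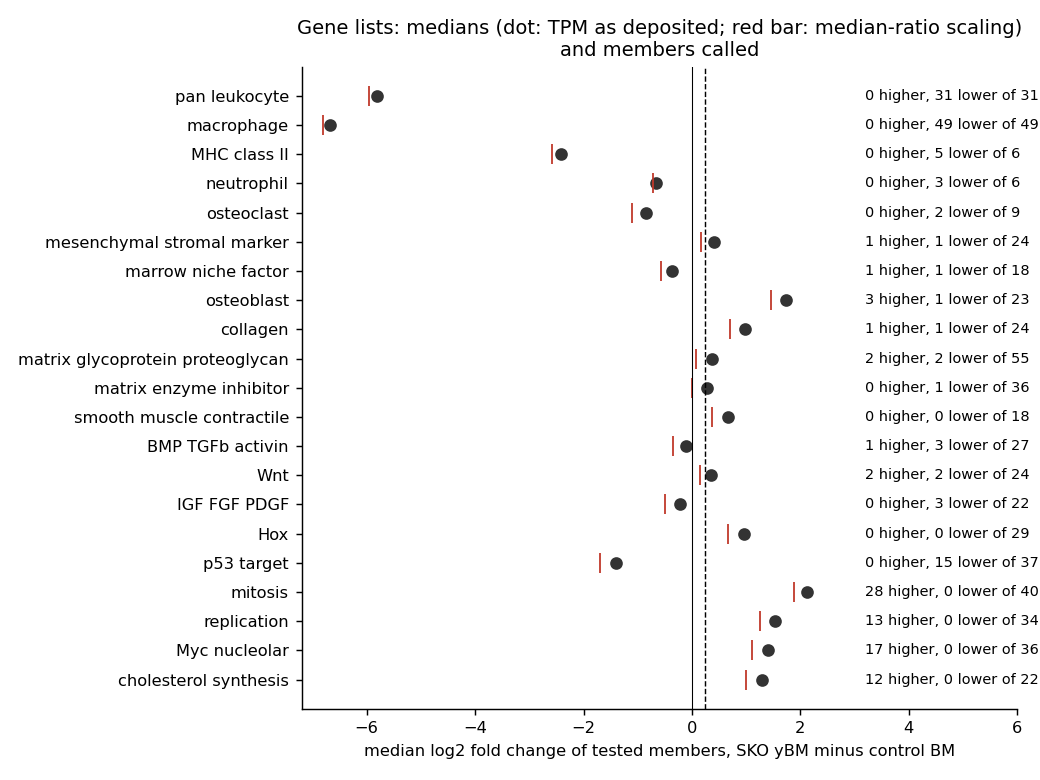
Median log2 fold change (horizontal axis) of the tested members of 21 gene lists, as deposited (dots) and with median-ratio scaling (red bars), with the number of members called at right and the median of all tested genes (0.24) as a dashed line. The pan-leukocyte and macrophage lists lie below -5, the stromal lists lie between -0.37 and 1.74, and the mitosis list is highest at 2.12.

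Broad mesenchymal markers were called at a low rate, 4.17% higher and 4.17% lower, against 5.78% and 7.77% of all tested genes. Of 24 tested, *Cdh2*, which encodes N-cadherin, was called higher, at 8.81, 18.4 and 17.5 TPM in control BM and 55.4, 59.7 and 66.9 TPM in SKO yBM (log2 fold change 2.01 ± 0.59 SE, adjusted p = 0.031), and *Ly6a*, which encodes Sca-1, was called lower, at 499, 1347 and 1924 TPM and 273, 263 and 96.6 TPM (log2 fold change -2.51 ± 0.79 SE, adjusted p = 0.042). Each lost its call when any of 5 of the 6 libraries was left out (adjusted p up to 0.14 and 0.2). The list median was 0.40 and turned to -0.13 without control library 1. *Vim*, the filament protein vimentin, was at 517, 1934 and 2348 TPM against 2329.6, 3895 and 3514 TPM, and *Vcam1*, an adhesion molecule of marrow stroma, at 17, 34.3 and 60.6 TPM against 44, 42.1 and 44.8 TPM, with the groups overlapping in both. *Pdgfrb*, a growth factor receptor of stromal cells, was at 19.4, 60.7 and 57.6 TPM against 65.1, 94.1 and 64.4 TPM, without overlap, and did not pass (log2 fold change 0.83 ± 0.71 SE, adjusted p = 0.46). *Thy1*, a surface marker of cultured stroma, was at 944, 132 and 121 TPM in control BM and 27.7, 7.48 and 4.26 TPM in SKO yBM, without overlap, but did not pass the test (log2 fold change -4.52 ± 1.64 SE, adjusted p = 0.076). Among 18 niche factors, of which 5.56% were called higher and 5.56% lower, *Foxc1*, a transcription factor of CXCL12-producing stroma, was called higher (log2 fold change 1.98 ± 0.59 SE, adjusted p = 0.033). It lost its call in 4 of the 6 fits with a library left out. *Cxcl12* itself ranged from 110 to 1118 TPM in control BM and from 491 to 1517 TPM in SKO yBM. *Bst1*, leukocyte-linked, went from 7.3, 6.13 and 13.2 TPM to 0, 0 and 0.0153 TPM (log2 fold change -3.23 ± 0.37 SE, adjusted p = 4.4e-06).

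Of 23 osteoblast genes tested, 3 were called higher and *Fam20c* lower. The number called higher was 12 in the fit of the 2 compared groups alone, 5 with quantile normalization and 1 whichever library was left out. In all, 19 lay above 0, as did 8857 of all 14458 tested genes. Without overlap 14 lay above control BM, against 30.9% of all tested genes (48.1% in either direction), and the median was 1.74 (1.46 with median-ratio scaling, and 1.29 without control library 1). *Dlx6*, a homeobox gene of skeletal progenitors, was at 0.14, 0.945 and 1.37 TPM in control BM and 17.9, 21.2 and 18.8 TPM in SKO yBM (log2 fold change 3.54 ± 0.75 SE, adjusted p = 0.0033). *Runx2*, the master transcription factor of osteoblasts, was at 6.32, 10.3 and 11.5 TPM and 33.3, 34.7 and 39 TPM (log2 fold change 1.85 ± 0.57 SE, adjusted p = 0.037). Its call was lost when any 1 of the 6 libraries was left out (adjusted p = 0.053 to 0.14). *Tnn*, which encodes the matrix protein tenascin-W, was at 0.583, 1.09 and 0.687 TPM and 103, 108 and 85.7 TPM (log2 fold change 5.81 ± 1.74 SE, adjusted p = 0.033), with the same loss of its call (adjusted p = 0.071 to 0.098). *Fam20c*, a kinase of secreted proteins, was at 65.8, 57.9 and 59.9 TPM against 14.8, 10.9 and 10.3 TPM (log2 fold change -2.27 ± 0.66 SE, adjusted p = 0.03), was leukocyte-linked, and also lost its call when any 1 library was left out. *Alpl*, the alkaline phosphatase of mineralizing cells, was at 11.4, 82 and 53.1 TPM and 697, 756 and 447 TPM and did not pass (log2 fold change 4.02 ± 1.80 SE, adjusted p = 0.15). *Sp7*, which encodes Osterix and whose promoter drives the Cre, was at 0.882, 10.3 and 10.4 TPM and 46.9, 104 and 33.7 TPM (log2 fold change 3.16 ± 1.54 SE, adjusted p = 0.18). *Bglap*, osteocalcin, was at 0, 5.69 and 7.61 TPM and 86.8, 57 and 18.3 TPM (log2 fold change 3.58 ± 1.95 SE, adjusted p = 0.23). In all 3 of these genes every SKO yBM library exceeded every control. *Spp1*, osteopontin, which macrophages also express, lay the other way, at 1083, 1056 and 802 TPM against 674, 231 and 384 TPM (log2 fold change -1.31 ± 1.03 SE, adjusted p = 0.41).

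**Figure D4:**
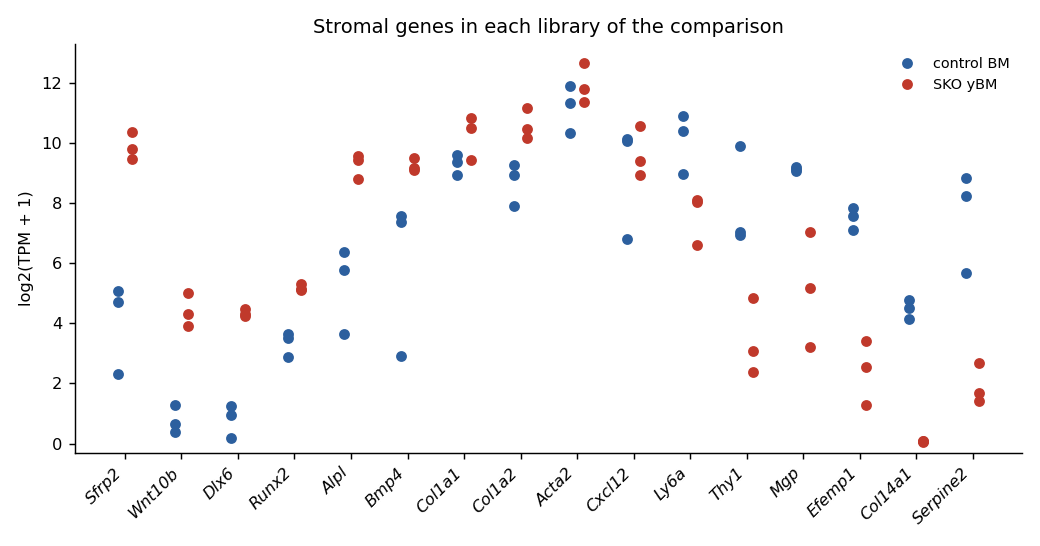
Log2(TPM + 1) (vertical axis) of 16 stromal genes in each control BM (blue) and SKO yBM (red) library. *Sfrp2*, *Wnt10b* and *Dlx6* were higher and *Col14a1*, *Efemp1* and *Serpine2* lower without overlap, while *Col1a1*, *Acta2* and *Cxcl12* overlapped between the groups.

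Few matrix genes were called. Of collagens 4.17% were higher and 4.17% lower, and of matrix glycoproteins and proteoglycans 3.64% and 3.64%. These shares lay below the 5.78% and 7.77% of all tested genes. Of 24 collagens, *Col14a1*, a fibril-associated collagen, went from 26.2, 16.5 and 21.8 TPM to 0.0509, 0.0274 and 0.061 TPM (log2 fold change -4.40 ± 1.00 SE, adjusted p = 0.0061), and *Col7a1*, the anchoring fibril collagen, rose from 0.888, 2.59 and 3.03 TPM to 11, 15 and 9.14 TPM (log2 fold change 2.05 ± 0.59 SE, adjusted p = 0.027; adjusted p up to 0.13 with a library left out). The fibrillar collagen gene *Col1a1* was at 493, 775 and 657 TPM and 1432, 1829 and 694 TPM, and *Col1a2* at 239, 618 and 488 TPM and 1407, 2298 and 1140.5 TPM, and neither passed. Of 55 matrix glycoproteins and proteoglycans, *Ltbp1*, which tethers latent TGF-beta, was called higher at 97.4, 125 and 135 TPM against 4.41, 24.9 and 27.4 TPM in control BM (log2 fold change 2.91 ± 0.73 SE, adjusted p = 0.012), as was *Tnn*. *Mgp*, an inhibitor of calcification, went from 564, 592 and 537 TPM to 132, 34.8 and 8.32 TPM (adjusted p = 0.022), and *Efemp1*, which encodes fibulin-3, from 229, 138 and 189 TPM to 9.54, 1.41 and 4.91 TPM (log2 fold change -5.10 ± 1.41 SE, adjusted p = 0.022). Leaving out 1 library ended the calls of *Ltbp1* in 2 fits (SKO yBM 3 and control 1) and of *Mgp* and *Efemp1* in 4 fits each, with adjusted p up to 0.087, 0.14 and 0.091. *Serpine2*, protease nexin-1, was the called member of 36 matrix enzymes and inhibitors, at 49.5, 298 and 454 TPM against 5.42, 1.69 and 2.21 TPM (log2 fold change -5.64 ± 1.29 SE, adjusted p = 0.0063). None of 18 contractile genes was called by limma (4 at an unadjusted p under 0.05), and *Acta2* was at 1272, 3804 and 2581 TPM and 2639, 6466 and 3562 TPM. With quantile normalization 2 of the 18 were called higher. Of 8 chondrocyte genes, *Prg4*, the joint lubricant lubricin, was called lower, at 19.6, 33.8 and 15.9 TPM against 9.66, 1.24 and 0.361 TPM (log2 fold change -2.85 ± 0.90 SE, adjusted p = 0.044), and lost its call in 5 of the 6 fits with a library left out. Of 10 adipocyte genes, *Cd36*, a fatty acid transporter that macrophages also carry, went from 131, 168 and 143 TPM to 0.0921, 0.0488 and 0.0535 TPM (log2 fold change -7.12 ± 1.15 SE, adjusted p = 0.00022).

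Calls among secreted signals of bone went in both directions. Of Wnt pathway genes 8.33% were higher and 8.33% lower, and of BMP, TGF-beta and activin genes 3.7% and 11.1%. Of IGF, FGF and PDGF genes 0 were higher and 13.6% lower. Across all tested genes the shares were 5.78% and 7.77%. Among 24 Wnt pathway genes, *Sfrp2*, a secreted Frizzled-related protein, rose from 4, 25.1 and 32.7 TPM to 708, 886 and 1308 TPM (log2 fold change 5.84 ± 1.21 SE, adjusted p = 0.0029), and the ligand gene *Wnt10b* from 0.317, 0.563 and 1.44 TPM to 14, 31.4 and 18.9 TPM (log2 fold change 3.64 ± 0.67 SE, adjusted p = 0.00098). Both calls held without any 1 library. *Sfrp4*, of the same family as *Sfrp2*, fell from 35.7, 39.4 and 37.6 TPM to 14.4, 0.83 and 2.75 TPM (log2 fold change -3.03 ± 0.83 SE, adjusted p = 0.02), and the antagonist gene *Dkk2* fell as well (log2 fold change -2.55 ± 0.80 SE, adjusted p = 0.042), with adjusted p up to 0.11 and 0.14 when a library was left out. Among 27 genes of BMP, TGF-beta and activin signalling, *Bmp4* was called higher at 569, 716 and 545 TPM against 6.5, 187 and 166 TPM (log2 fold change 3.30 ± 0.99 SE, adjusted p = 0.033). Control library 1 was far below the other controls for *Bmp4*, and without it the adjusted p was 0.193. Its call was also lost without SKO yBM library 1, 2 or 3, as 0 genes of this list were then called higher. In the same list 3 genes were called lower, against 2 without control library 1 and 1 without SKO yBM library 3. *Gdf6*, a BMP family ligand, fell from 1.32, 3 and 2.06 TPM to 0.0213, 0.0283 and 0.01 TPM (log2 fold change -1.58 ± 0.22 SE, adjusted p = 3.6e-05), and *Inhbb*, an activin subunit, from 15.9, 10.9 and 10.9 TPM to 2.03, 2.31 and 0.525 TPM (log2 fold change -2.43 ± 0.62 SE, adjusted p = 0.013; 0.083 without SKO yBM library 3). *Tgfb1* fell from 105, 143 and 135 TPM to 31.5, 28.1 and 11.1 TPM (log2 fold change -2.50 ± 0.62 SE, adjusted p = 0.011; 0.081 without SKO yBM library 3) and was leukocyte-linked, as were *Igf1* (379.8, 286 and 276 TPM to 5.69, 15 and 12.1 TPM) and *Pdgfb* (5.67, 13 and 16 TPM to 0.0743, 0.425 and 0.332 TPM), the called members of the IGF, FGF and PDGF list besides *Igfbp2*. *Igfbp2*, an IGF binding protein, was at 108, 156 and 142 TPM against 7.54, 2.64 and 0.729 TPM (log2 fold change -5.16 ± 1.68 SE, adjusted p = 0.049), and its call was lost when any 1 library was left out. None of 29 Hox genes was called by limma (4 at an unadjusted p under 0.05), while 20 were above control BM without overlap, against 30.9% of all tested genes. In the fit of SKO yBM and control BM alone 10 were called higher, and 1 with quantile normalization.

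The 12 largest rises held *Sfrp2* and *Tnn*, described above, and 10 others. *P3h2*, which hydroxylates proline in collagens, rose from 0.224, 0.277 and 0.394 TPM to 22.9, 10.4 and 31.3 TPM (log2 fold change 3.99 ± 0.71 SE, adjusted p = 0.00066). *Insc*, an adaptor that orients the mitotic spindle, rose from 0.099, 1.68 and 1.03 TPM to 51.3, 66.4 and 44.5 TPM (log2 fold change 4.90 ± 1.21 SE, adjusted p = 0.011; 0.053 without control library 1). *Ptn*, the heparin-binding growth factor pleiotrophin, was at 30.9, 32.3 and 24.5 TPM against 2.77, 0.572 and 1.13 TPM (log2 fold change 3.69 ± 1.18 SE, adjusted p = 0.045), and *Megf6* at 30.1, 96.9 and 37.7 TPM against 0.0561, 5.14 and 6.53 TPM (log2 fold change 3.75 ± 1.14 SE, adjusted p = 0.036). Leaving out 1 library took *Ptn* past 0.05 in all 6 fits and *Megf6* in 5. The small nucleolar RNAs *Snora17*, *Snora31* and *Snora43* also ranked here, but they are short and were read from poly-A libraries. *Rpl34-ps1*, *Tma7-ps* and a second entry named *Myl12b* share sequence with other genes and are uncertain. The second *Myl12b* entry was at 784, 3.09 and 933 TPM in the 3 SKO yBM libraries, so 1 of them lay near the controls.

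Of 37 genes that p53 activates, 15 were called lower and 0 higher, against 7.77% of all genes called lower, and the median was -1.41 (-1.69 with median-ratio scaling). *Cdkn1a*, the p21 inhibitor of the cell cycle, went from 284, 586 and 560.3 TPM to 5.57, 5.94 and 2.99 TPM (log2 fold change -6.33 ± 1.00 SE, adjusted p = 0.00017), and was itself leukocyte-linked (r = 0.78). The other 14 were not. As for *Trp53*, r of a p53 target over set 1 mixes genotype with leukocyte content. *Eda2r*, a receptor of the TNF receptor family, went from 7, 16.6 and 15.1 TPM to 0.0788, 0.193 and 0.3 TPM (log2 fold change -3.47 ± 0.47 SE, adjusted p = 2.9e-05). *Ccng1*, cyclin G1, went from 173, 386 and 362 TPM to 30.9, 31.5 and 38 TPM (log2 fold change -3.08 ± 0.45 SE, adjusted p = 6.9e-05). *Mdm2*, the ubiquitin ligase that degrades p53, went from 68, 99.5 and 86.6 TPM to 23.4, 22.8 and 24.6 TPM (log2 fold change -1.78 ± 0.33 SE, adjusted p = 0.0011). *Bax*, a mitochondrial death effector, went from 309, 625 and 541 TPM to 131, 158 and 134 TPM (log2 fold change -1.74 ± 0.34 SE, adjusted p = 0.0018). *Trp53inp1*, *Psrc1*, *Dcxr*, *Ephx1*, *Pidd1*, *Fas*, *Sesn1*, *Bbc3*, *Ei24* and *Btg2* were the remaining called members. After removal of leukocyte-linked and mitochondrial genes, 16 of 36 members were called lower (5.2% of all genes in that fit), and 14 to 16 were called with any 1 library left out.

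Many cell division genes rose. Of 40 mitosis genes, all 40 lay above 0 (8857 of all 14458 tested genes), 28 were called higher (5.78% of all genes) and the median was 2.12 (1.87 with median-ratio scaling). *Ccnb1*, the mitotic cyclin B1, rose from 2.68, 7.03 and 9.25 TPM to 38.1, 45.7 and 102 TPM (log2 fold change 3.10 ± 0.59 SE, adjusted p = 0.0014). *Cdc20*, an activator of the anaphase-promoting complex, rose from 3.67, 10 and 10.3 TPM to 43.4, 51.2 and 90.3 TPM (log2 fold change 2.84 ± 0.66 SE, adjusted p = 0.007). *Top2a*, the topoisomerase that untangles chromosomes, rose from 7.62, 13.3 and 17.4 TPM to 55, 76.3 and 126 TPM (log2 fold change 2.64 ± 0.68 SE, adjusted p = 0.015). SKO yBM library 3 was highest in each, and without it 5 of the 40 were called, against 10 without control library 1. Of 34 replication genes, 13 were called higher with a median of 1.53, including *Tyms*, thymidylate synthase (4.78, 15.5 and 19.6 TPM to 59.6, 56.1 and 85.4 TPM; log2 fold change 2.42 ± 0.48 SE, adjusted p = 0.0019), and *Prim1*, the primase subunit (1.91, 4.29 and 5.97 TPM to 15.6, 16.9 and 28.1 TPM; log2 fold change 2.11 ± 0.41 SE, adjusted p = 0.0017). That count was 4 without either of the same 2 libraries, and 21 in the fit of SKO yBM and control BM alone or with quantile normalization.

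The cell cycle homology region (CHR), TTTGAA, was chosen after these values were seen and searched on both strands in the same RefSeq promoters. It was in 69.7% of 33 mitosis promoters, 11.1% of 27 replication promoters, 18.9% of the genes that rose, 14.4% of tested genes with a promoter and 20.2% of all symbols. The CCAAT box, also not among the motifs first planned, was in 72.7%, 66.7%, 49.4%, 43.4% and 41.1%. The 4 stretches below are examples from mitosis genes called higher, and capitals mark each CHR or its reverse complement. In *Kif2c*, *Ect2* and *Ccnb2*, of the same list, a CHR ended farther out, 97, 108 and 161 bases before the start.
Cdc20 (chr4:118437344-118437443, minus strand, GRCm38.p6): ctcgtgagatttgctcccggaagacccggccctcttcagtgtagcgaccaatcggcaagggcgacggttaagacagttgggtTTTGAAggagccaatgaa
Top2a (chr11:99024190-99024289, minus strand, GRCm38.p6): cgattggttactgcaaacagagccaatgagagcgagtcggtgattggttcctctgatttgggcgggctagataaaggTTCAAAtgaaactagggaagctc
Ube2c (chr2:164769829-164769928, plus strand, GRCm38.p6): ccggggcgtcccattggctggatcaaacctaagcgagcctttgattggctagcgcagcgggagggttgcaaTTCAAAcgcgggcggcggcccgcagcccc
Cdk1 (chr10:69352913-69353012, minus strand, GRCm38.p6): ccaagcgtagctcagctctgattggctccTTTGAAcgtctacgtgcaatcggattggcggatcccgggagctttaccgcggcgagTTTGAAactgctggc
The stretch of *Cdk1*, the kinase that partners cyclin B, held 2 copies, and the other 3 held 1. *Ube2c*, the ubiquitin-conjugating enzyme of mitotic exit, and *Cdk1* were called higher, with log2 fold changes of 2.38 and 1.94.

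**Figure D5:**
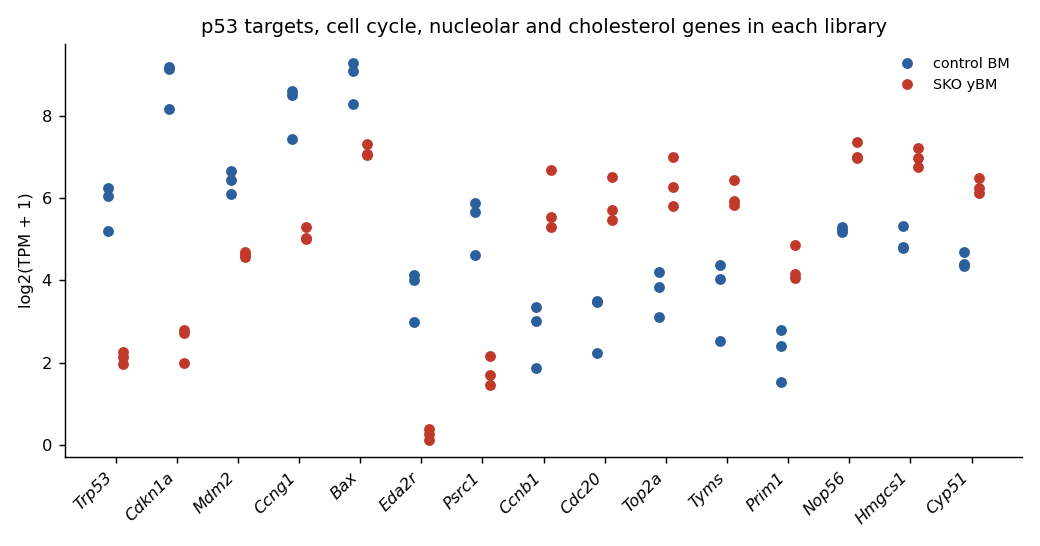
Log2(TPM + 1) (vertical axis) of *Trp53*, 6 p53 targets and 8 cell division, nucleolar and cholesterol genes in each control BM (blue) and SKO yBM (red) library. The p53 targets lie lower and the other genes higher in SKO yBM, without overlap.

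Nucleolar and cholesterol genes were called in the same direction. Of 36 Myc-related nucleolar genes, all 36 lay above 0, 17 were called higher and the median was 1.40. Among all 14458 tested genes, 8857 lay above 0 and 5.78% were called higher. *Nop56*, a core protein of small nucleolar particles, rose from 35.1, 36.1 and 38.5 TPM to 124, 128 and 163 TPM (log2 fold change 1.88 ± 0.37 SE, adjusted p = 0.0019). *Myc* itself was at 12.2, 20.4 and 20.1 TPM in control BM and 66.4, 50.8 and 57.7 TPM in SKO yBM, without overlap, and did not pass (log2 fold change 1.70 ± 0.62 SE, adjusted p = 0.079). All 22 genes of cholesterol synthesis lay above 0 and 12 were called higher, with a median of 1.29. *Hmgcs1*, an early enzyme of the pathway, rose from 26.8, 27.3 and 39.1 TPM to 125, 148 and 107 TPM (log2 fold change 2.00 ± 0.47 SE, adjusted p = 0.0077), and *Cyp51* from 20, 19.4 and 24.7 TPM to 88.3, 68.7 and 74.7 TPM (log2 fold change 1.81 ± 0.36 SE, adjusted p = 0.0023). After removal of leukocyte-linked and mitochondrial genes, the calls were 18 of 40 for mitosis, 7 of 34 for replication, 6 of 36 for nucleolar and 6 of 22 for cholesterol genes, with medians of 2.00, 1.32, 1.15 and 1.04. In that fit 3.21% of all genes were called higher and the median of all genes was 0.094. With 1 library left out, the lowest counts were 5 nucleolar genes (without SKO yBM library 3) and 3 cholesterol genes (without that library or control library 1).

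Few genes of the remaining lists were called. None of 30 interferon response genes was called by limma (1 at an unadjusted p under 0.05). SKO yBM library 1 stood apart in this list, with a sum of 948 TPM against 288 and 201 TPM in the other SKO yBM libraries and 328 to 624 TPM in control BM, and without it the median moved from -0.36 to -0.89, with 27 of 30 genes below 0. Of 11 class I antigen presentation genes, *H2-T23* was called lower (log2 fold change -2.33 ± 0.54 SE, adjusted p = 0.0064), while *B2m*, the shared light chain, was at 2188, 1916 and 2119 TPM and 1749.7, 663 and 599 TPM and did not pass. The class I median moved from -0.32 to -1.18 without SKO yBM library 1, with all 11 below 0. *Atf3*, a stress-response factor that was leukocyte-linked, was the called member of 20 immediate early genes (log2 fold change -2.68 ± 0.83 SE, adjusted p = 0.04) and lost its call when any 1 library was left out. Those 20 genes summed to 33708 TPM in control library 1, against 3572 and 2540 TPM in the other controls and 2435 to 2982 TPM in SKO yBM. Among 19 glycolysis genes *Aldoc* and *Gpi1* were called lower (log2 fold change -2.32 ± 0.53 SE, adjusted p = 0.0065, and log2 fold change -1.31 ± 0.38 SE, adjusted p = 0.028), and that of *Gpi1* was lost when any 1 library was left out.

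DKO yBM of set 2, in which *Wwox* is deleted as well, was set beside SKO yBM against the same 3 control libraries. The DKO yBM comparison called 1350 genes higher (9.34%) and 1469 lower (10.2%). *Csf1r* was at 0.548, 0.705 and 0.939 TPM in DKO yBM, *Cdkn1a* at 6.07, 3.96 and 6 TPM, *Ccnb1* at 100.2, 81.5 and 112 TPM and *Sfrp2* at 1008, 1323 and 317 TPM. *Wwox* was at 0.78, 0.167 and 0.0288 TPM. Against the same controls, the median log2 fold change in DKO yBM and SKO yBM was -6.71 and -6.68 for macrophage genes. The medians lay further apart for contractile (-0.87 and 0.67), collagen (0.12 and 0.98) and osteoblast genes (0.95 and 1.74). Of 312 tested members of the stromal lists, DKO yBM had 8 called higher and 31 lower, and SKO yBM 10 and 17. Nucleolar genes called higher were 30 and 17 of 36. Differences between the lists were not tested. Tested directly, 3 of 14458 genes were called different between DKO yBM and SKO yBM (0.0207%): *Amd2* and the unnamed models Gm25636 and Gm12191. *Wwox* did not pass in that contrast (adjusted p = 0.94), nor did any leukocyte, osteoblast or mitosis gene named above. *Wwox* is deleted in DKO and its values did not overlap between the 2 groups, so a gene without a call cannot be taken as unchanged.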

How the data were processed

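Of 37 RNA libraries of mouse marrow and tumor cultures, 3 of SKO yBM were compared with 3 of control BM. The authors trimmed reads (Trim Galore 0.6.1 and genome build mm39 in the submitters' processing notes), quantified them with salmon and deposited TPM per gene. TPM keeps no read depth, so the depth is unknown and no counting interval could be given. The control columns were matched to their group only. Of 51123 gene IDs, 48246 were matched to a symbol.

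Genes that reached 1 TPM in 3 or more of the 21 set 2 libraries were tested on log2(TPM + 1) with limma 3.58.1 in R 4.3.3 (eBayes with trend) in 1 fit of the 7 groups of set 2, which share 1 estimate of the spread, with Benjamini-Hochberg adjustment. Each fold change is a difference of log2(TPM + 1), which makes changes of low genes look smaller than they are. Values at 0 are written as listed at 0. The fit was tested on simulated data.

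The groups compared, gene lists and classes were chosen with earlier results of these data known. Named genes were *Trp53* and *Wwox*, the 12 largest falls and rises of each class among called genes that did not overlap and averaged at least 5 TPM in the higher group (unnamed models and sex-linked genes left out, and a gene that is not reported here), the 3 smallest p of each list, and called list members. Other list members, and near-identical copies, were named after their values were seen. Promoters came from RefSeq. Each count was repeated with other pseudocounts, filters, scalings, groups and classes and without each library. No 2 of the 6 libraries held identical values.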

Additional observations from a re-analysis of the deposited data

Results flagged for a closer look

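Between SKO yBM and DKO yBM of set 2, 3 genes were called when the difference was tested by limma. *Wwox*, deleted in DKO, was not among them, so a gene without a call cannot be taken as unchanged. *Amd2* differed by -3.71 on the log2 scale (DKO yBM minus SKO yBM, adjusted p = 9.4e-05), at 10.4, 13.8 and 19.6 TPM in SKO yBM and 0.158, 0.088 and 0.22 TPM in DKO yBM, with 2.35, 8.89 and 6.38 TPM in control BM. It has a near-identical copy, between which reads can be divided. Gm25636 differed by 3.46 (adjusted p = 1.2e-09), at 10.6, 9.13 and 10.4 TPM in DKO yBM and listed at 0 in SKO yBM and control BM. Gm12191 differed by 7.80 (adjusted p = 0.026), at 252.6, 259.5 and 165.8 TPM in DKO yBM, listed at 0 in SKO yBM, and at 0, 140.9 and 151.7 TPM in control BM. Whether the last 2 are expressed loci or copies of other genes was not tested.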

How the results depend on the processing

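Under every alternative but the covariate fit, leukocyte-linked genes were called lower in 510 to 655 cases and none higher where the class was kept. The counts among other genes depended on the scaling and on single libraries. Using only the 2 compared groups gave 3434 calls (1783 higher, all among other genes, and 1014 lower among other genes), and quantile normalization gave 3249 (1680 higher, all other, and 925 lower among other genes). Median-ratio scaling gave 1761 lower in all and 1106 among other genes. Without a filter, 969 other genes were lower. With leukocyte-linked and mitochondrial genes removed there were 1150 calls, 439 higher and 711 lower. With 1 library left out, all calls ranged from 1025 to 1688, those higher, all of them other genes, from 196 to 764, those lower from 829 to 1049, and those lower among other genes from 319 to 503. Other rules for the class moved the split of the falls: r of at least 0.5 left 323 other genes lower, r of at least 0.9 gave 193 linked and 930 other, and r over the 15 set 2 libraries gave 366 linked. The fit with the leukocyte score as a covariate called 192 genes (116 higher, 76 lower), of which 41 lower were linked, 104 higher and 35 lower were other. The remaining calls were linked genes called higher, and 6 macrophage genes were called higher in this fit. Within groups the score varied mainly in 1 SKO BMT and 1 DKO BMT library, so that fit extends a slope from them to scores beyond theirs, and it turned the sign of 32 named genes (*Lyz2* 8.54, *Apoe* 3.65, *Tyrobp* 4.68, *C1qa* 2.56, *Laptm5* 2.44, *Ctss* 5.89, *Clec4d* 2.30, *C1qc* 2.92, *C1qb* 4.28, *Csf1r* 0.18, *Cd68* 3.18, *Serpine2* 0.071, *Igfbp2* 3.92, *Snora17* -1.62, *Itgb2* 0.16, *Inpp5d* 0.67, *Cd37* 1.37, *Spi1* 0.80, *Adgre1* 1.19, *H2-Eb1* 0.12, *Atp6v0d2* 2.54, *Fam20c* 1.26, *Col14a1* 2.67, *Mgp* 2.00, *Cd36* 3.68, *Tgfb1* 1.68, *Inhbb* 1.05, *Sfrp4* 0.43, *Igf1* 1.46, *Cdkn1a* 2.12, *Btg2* 0.34, *Aldoc* 0.98). Leaving out those libraries was added after seeing the data and gave 847 higher and 1210 lower. Of 108 named genes called, 75 kept their call and direction under all other alternatives they entered. Nothing ties the number in a column name to a litter, batch or day, and libraries of the same number did not deviate together (r of 0.0368, 0.0259 and 0.02; each control correlated better with another SKO yBM number), so the numbers do not pair the libraries. A replicate block on that number, added after seeing the data, gave 1776 calls (713 higher, 1063 lower). TPM holds no depth, which limits low values most.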
